A study of Mus musculus with 18 samples.

Results

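The 39 genes described here are antiviral interferon-stimulated genes, whose products sense viral RNA or DNA, degrade or modify it, block its translation, or tag proteins with the ubiquitin-like modifier ISG15. They were chosen by symbol from the count table of a mouse islet study, with earlier results of these data known. All 39 were found among its 55536 genes. Interferons bind receptors that activate the kinases JAK1, JAK2 and TYK2. The transcription factors that follow bind the interferon-stimulated response element (ISRE), mainly after type I interferons, and the gamma-activated site (GAS), mainly after interferon gamma. In pancreatic islets, the clusters of endocrine cells that hold the insulin-producing beta cells, an interferon signature is known from the early stages of autoimmune diabetes.

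The libraries came from islets of mice lacking zinc transporter 8 (ZnT8 -/-, KO), of heterozygotes (ZnT8 +/-, Het) and of wild types (WT). ZnT8, encoded by Slc30a8, loads zinc into the insulin granules. After overnight culture the islets of each genotype spent 24 h with TNF-α at 100 pg/ml, IL-1β at 150 pg/ml and IFN-γ at 10 pg/ml, or without cytokines, which gave 6 groups of 3 libraries. All mice were 17-week-old males on NOD.CB17-Prkdcscid/NCrCrl, a non-obese diabetic background with the scid mutation, so the controls carry it too and mature T and B lymphocytes are lacking. The labels state n = 3 mice but tie no library to an animal, and give neither the deleted stretch of Slc30a8 nor the cells in which it is lost. The p-values therefore reflect only how far these samples spread.

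The 18 libraries held 22990164 to 29946680 reads assigned to genes, of which the 39 genes took 0.0542% to 0.0962%. Slc30a8 stood at 20 to 23.2 and 44 to 55.9 CPM (counts scaled to library size, with TMM factors) in KO islets with and without cytokines, against 34.5 to 46.4 and 98.8 to 125 CPM in WT islets, and Het islets overlapped the WT ranges (32.1 to 56.6 and 95.7 to 126 CPM). The 9 beta cell markers summed to 144000 to 233000 CPM over the libraries, so the tissue matched its label. Untreated KO replicate 3 stood apart: it held 497 reads of Cd4, 384 of Il2rb and 41 of Cd3e, against at most 59, 31 and 7 in the other 17 libraries. It also held 22 reads of Cd3g, 18 of Cd3d and 12 of Cd8a, T cell genes, against at most 1, 0 and 1. Its 9 T and B lymphocyte markers summed to 21.2 CPM, against at most 3.25 CPM elsewhere. Of the B cell genes, Cd79b had 18 reads against at most 10, Cd79a 36 against at most 38, and Ms4a1 0. Its 7 natural killer and innate lymphoid markers summed to 13.9 CPM, against at most 1.28 CPM elsewhere, mostly through Il2rb. The source of these reads was not tested. Changes in KO islets that moved by over 1.5 times without this library are given both ways below.

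Promoter sequence was read first, to show which of these genes carry the elements that interferon-activated factors bind. RefSeq windows (GRCm38.p6) from 250 bases before to 50 after a start site were at hand for 28 of the 39 genes. The ISRE core was searched as GAAANNGAA and the GAS as TTCNNNGAA, on both strands, with overlapping matches allowed. An ISRE core was found for 19 of the 28 genes (67.9%) and for 9.76% of all 27025 genes with a window. A GAS was found for 9 of the 28 genes (32.1%) and for 9.55% of all genes, and a site for NF-kB, the factor that TNF-α and IL-1β activate, for 2 (7.14%) and 5.14%. Of the 17 genes with a window that passed the test for cytokines in no genotype, 13 had an ISRE core, as had 1 of the 3 that rose in all genotypes, 4 of the 6 that rose in 1 or 2, and 1 of the 2 that fell. The sequences below are the bases upstream of annotated exons for 2 genes that rose in every genotype, Samd9l and Isg20, and for 4 that passed in none, Ifitm3, Ifih1, Isg15 and Ifit1; capitals mark ISRE cores and GAS. Dtx3l and Cd274 would also be due, but annotated exons leave only 71 and 47 bases of their windows, and they are not printed. Isg15 and Ifit1 were chosen after their values were seen, as genes with several cores.
Samd9l: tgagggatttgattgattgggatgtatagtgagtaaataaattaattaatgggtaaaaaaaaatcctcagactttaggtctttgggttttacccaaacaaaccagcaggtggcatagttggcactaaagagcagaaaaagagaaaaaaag
Isg20: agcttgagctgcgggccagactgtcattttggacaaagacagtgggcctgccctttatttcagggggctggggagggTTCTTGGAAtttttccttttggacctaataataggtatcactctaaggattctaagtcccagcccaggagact
Ifitm3: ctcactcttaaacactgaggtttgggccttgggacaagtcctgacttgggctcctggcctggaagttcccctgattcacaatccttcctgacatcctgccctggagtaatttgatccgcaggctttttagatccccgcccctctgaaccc
Ifih1: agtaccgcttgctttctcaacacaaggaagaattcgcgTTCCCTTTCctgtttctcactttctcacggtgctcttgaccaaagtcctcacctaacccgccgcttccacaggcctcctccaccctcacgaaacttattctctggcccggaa
Isg15: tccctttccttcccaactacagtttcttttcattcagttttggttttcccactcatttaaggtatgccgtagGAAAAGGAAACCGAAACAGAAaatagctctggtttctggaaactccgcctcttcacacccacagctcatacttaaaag
Ifit1: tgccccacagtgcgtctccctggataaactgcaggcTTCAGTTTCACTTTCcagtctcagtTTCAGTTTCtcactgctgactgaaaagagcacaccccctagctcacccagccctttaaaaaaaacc

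These stretches lie at chr6:3399573-3399722, minus strand, for Samd9l, chr7:78913274-78913423, plus strand, for Isg20, chr7:141010771-141010920, minus strand, for Ifitm3, chr2:62646256-62646405, minus strand, for Ifih1, chr4:156200819-156200968, minus strand, for Isg15 and chr19:34640744-34640870, plus strand, for Ifit1. Isg15 has 3 ISRE cores, each overlapping the next, the first starting at base -78 from the start site. Ifit1 has 3 in the reverse orientation, at -109, -103 and -84, of which the first pair overlap. In its printed stretch Ifih1 has 1 at -112, while Isg20 has a GAS at -73 in the first of its 3 RefSeq windows. The Samd9l and Ifitm3 stretches hold neither motif, and their ISRE cores follow the start site, at base 39 for Samd9l and at bases 3 and 20 for Ifitm3. Some genes with arrays of ISRE cores thus stand among those that passed in no genotype, which is a description of the letters and not of factor binding.

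The first comparison asked how the 39 genes answered cytokines in each genotype. The response was partial: Samd9l, Isg20, Parp14, Dtx3l and Parp9 rose in all 3 genotypes, by 1.29-fold to 2.33-fold. Isg15, Mx1, Mx2, Rsad2 and Ifit1 to Ifit3, genes commonly read as markers of an interferon response, did not pass in any. Larger rises were estimated for Zbp1 and Iigp1, which averaged 4.87 and 2.38 CPM over all libraries. Zbp1 passed in KO islets only, with log2 changes of 1.80 in KO and 1.35 ± 0.54 in WT islets. Iigp1 passed in none, with 1.84 in KO and 1.24 ± 0.93 in WT islets. Usp18, Cmpk2 and Trim25 fell in 1 or 2 genotypes. Of 38 genes tested (Ido1 had too few reads), 13 rose and 3 fell in KO islets, 9 rose and 1 fell in Het islets, and 5 rose and 1 fell in WT islets, by the quasi-likelihood test of edgeR, with Benjamini-Hochberg adjusted p below 0.05 over 17590 genes. The WT total of 6 was 8 by DESeq2, 11 by limma voom and 11 with only the compared groups in the fit. By DESeq2 and limma voom the KO total of 16 was 19 and 23, and the Het total of 10 was 11 and 12. The share of all genes that passed was computed for the main fit only, so these other totals have no background beside them. Over all genes tested, 15.3% rose and 16% fell in KO islets, 12.7% rose and 11.7% fell in Het islets, and 12.5% rose and 13.1% fell in WT islets. In the main fit the share of the 38 genes that rose was thus near that of all genes in WT islets and higher in KO and Het islets. The share that fell was lower than that of all genes in each genotype. The genes were chosen with earlier results of these data known, so these differences from all genes are not read as a trait of them. The median log2 change of the 38 genes was 0.43 in KO, 0.02 in Het and 0.23 in WT islets, against -0.03, -0.03 and -0.01 for all genes. Changes are log2 fold changes of cytokine-treated over untreated islets, with their SE. Not passing does not show a smaller change. In WT islets Isg15 changed by 0.49 ± 0.48 and Ifit3 by 0.67 ± 0.45, against 0.39 ± 0.11 for Parp9. The other markers named above lay between -0.70 ± 0.65 (Mx1) and 0.15 ± 0.34 (Ifit2). These markers averaged 1.62 (Mx1) to 8.69 CPM (Ifit1) over all libraries. The genes that rose in every genotype averaged 30.35 (Dtx3l) to 101.4 CPM (Isg20). The 3 comparisons share no libraries, but 1 fit gives their spread.

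**Figure D1:**
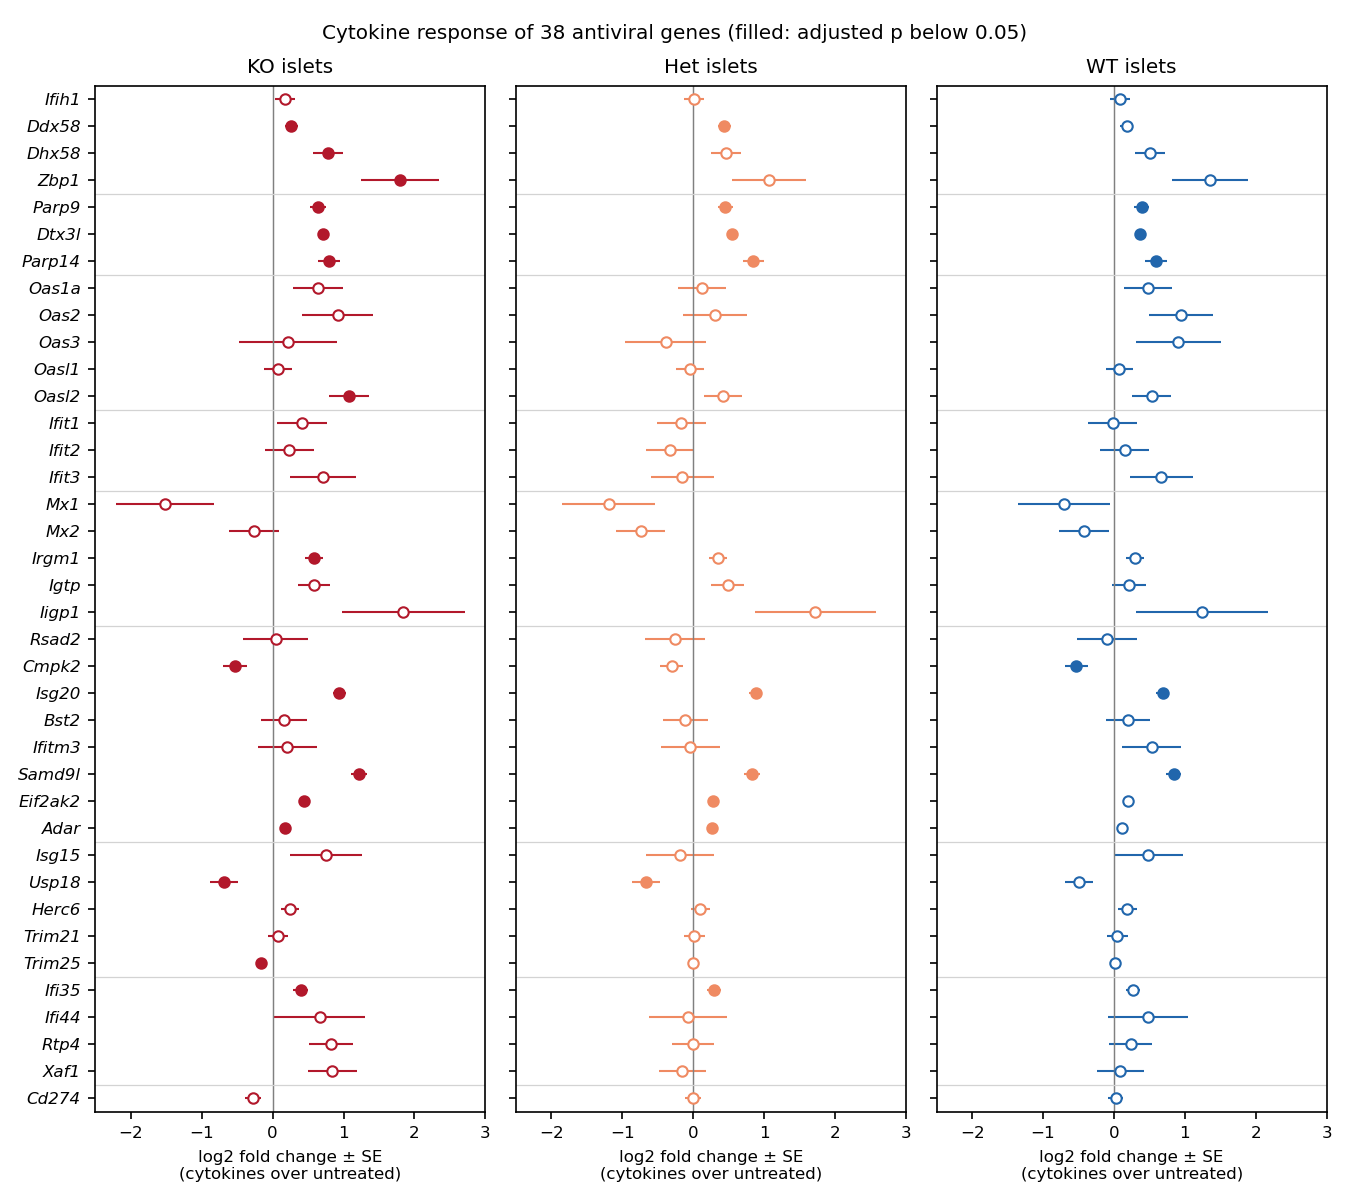
Log2 fold change (x axis, cytokines over untreated, ± SE) of 38 genes (y axis, in blocks by role) in KO, Het and WT islets, 3 libraries per group. Filled points passed at an adjusted p below 0.05: 16 in KO, 10 in Het and 6 in WT islets.

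The 3 genes of ADP-ribosylation, a protein modification, among the 39 rose in every genotype. Of the PARP genes outside the 39 that were listed, Parp12 rose in every genotype, while Parp10 and Parp11 passed in none. In KO, Het and WT islets Parp12 changed by 0.43 ± 0.07, 0.31 ± 0.07 and 0.26 ± 0.07. Parp10 changed by 0.13 ± 0.08, 0.18 ± 0.08 and 0.01 ± 0.08, and Parp11 by 0.17 ± 0.09, 0.04 ± 0.09 and 0.03 ± 0.09. Parp14 is a mono-ADP-ribosyltransferase, and Parp9 pairs with the ubiquitin ligase Dtx3l. Parp14, Dtx3l and Parp9 lie in 1 stretch of chromosome 16 (GRCm38), Parp14 at chr16:35832874-35871544, Dtx3l at chr16:35926511-35939151 and Parp9 at chr16:35938470-35972605. Parp14 had 50, 43.2 and 49.8 CPM in cytokine-treated KO islets, against 25.5, 26 and 31.2 CPM in untreated KO islets. It had 55.9, 39.8 and 65.5 CPM in cytokine-treated Het islets, against 31.7, 28.3 and 29.6 CPM untreated, and 50.7, 45.2 and 53.8 CPM in cytokine-treated WT islets, against 38.5, 28.1 and 32.8 CPM untreated. Every treated library lay above every untreated one of its genotype, and treated Het replicate 2 was the lowest treated library. Parp14 rose by 0.79 ± 0.15 in KO, 0.85 ± 0.15 in Het and 0.59 ± 0.15 in WT islets (edgeR adjusted p = 0.0011, 0.000806 and 0.0102).

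Dtx3l had 39.6, 36.6 and 36.9 CPM in cytokine-treated KO islets, against 22.5, 22.6 and 23.9 CPM in untreated KO islets. It had 39.5, 33.8 and 37.1 CPM in cytokine-treated Het islets, against 23.5, 25.7 and 26.4 CPM untreated, and 35.3, 31.7 and 33.6 CPM in cytokine-treated WT islets, against 28.8, 23.2 and 25.7 CPM untreated. The groups did not overlap, and the replicates were close together, above all in KO islets. Dtx3l rose by 0.71 ± 0.08, 0.55 ± 0.08 and 0.37 ± 0.08 in KO, Het and WT islets (edgeR adjusted p = 3.68e-06, 6.90e-05 and 0.00213). Parp9 moved alongside, with 39.9, 36.2 and 36.1 CPM in cytokine-treated KO islets, against 23.9, 23.2 and 25.1 CPM untreated. Cytokine-treated Het islets held 39.7, 33.5 and 42.7 CPM, against 25.2, 28.3 and 31.6 CPM untreated, and cytokine-treated WT islets 37.6, 36.2 and 37.9 CPM, against 33, 24.3 and 27.7 CPM untreated. Again no group pair overlapped, although untreated WT replicate 1 came near the treated libraries. Parp9 rose by 0.64 ± 0.11, 0.45 ± 0.11 and 0.39 ± 0.11 in KO, Het and WT islets (edgeR adjusted p = 0.000253, 0.00556 and 0.0121). The WT calls of Parp9 and Parp14 were lost without untreated WT replicate 2 (adjusted p = 0.0702 and 0.0542; over all alternatives, 0.00171 to 0.0702 and 0.00113 to 0.0542). Parp9 and Dtx3l overlap on opposite strands, and no source used here says whether reads were counted by strand, so reads from their overlap cannot be told apart.

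Among 8 effectors on viral RNA, nucleotides and membranes, 4 rose and 1 fell in KO islets, 4 rose in Het islets, and 2 rose and 1 fell in WT islets. Samd9l, a gene whose product restricts viral replication (chr6:3372257-3399572, minus strand, GRCm38), changed most in KO and WT islets among the genes that rose in every genotype. It had 54.8, 53 and 48.6 CPM in cytokine-treated KO islets, against 21.4, 21.2 and 24.5 CPM in untreated KO islets. It had 50.3, 50.7 and 54.2 CPM in cytokine-treated Het islets, against 27.5, 30.1 and 30 CPM untreated, and 49.8, 45.5 and 49.4 CPM in cytokine-treated WT islets, against 33.7, 22.8 and 24.2 CPM untreated. All treated libraries reached a like level, and untreated KO replicates 1 and 2 were the lowest of all. Samd9l rose by 1.22 ± 0.11, 0.82 ± 0.11 and 0.84 ± 0.11 in KO, Het and WT islets (edgeR adjusted p = 5.34e-07, 3.80e-05 and 3.84e-05).

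Isg20, a 3' to 5' exonuclease of single-stranded RNA (chr7:78913424-78920396, plus strand, GRCm38), had 148, 138 and 130 CPM in cytokine-treated KO islets, against 82.6, 67.7 and 66.9 CPM in untreated KO islets. It had 124, 129 and 132 CPM in cytokine-treated Het islets, against 76.9, 61.2 and 71.8 CPM untreated, and 111, 122 and 134 CPM in cytokine-treated WT islets, against 77.4, 73.1 and 78 CPM untreated. No treated library came near an untreated one. Isg20 rose by 0.94 ± 0.09, 0.88 ± 0.09 and 0.69 ± 0.09 in KO, Het and WT islets (edgeR adjusted p = 1.11e-06, 3.21e-06 and 4.50e-05). The calls of Isg20, Samd9l and Dtx3l in each genotype held under all 25 alternatives, among them every left-out library.

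Eif2ak2 encodes PKR, the kinase that stops translation on sensing double-stranded RNA. It had 40.4, 40.8 and 41 CPM in cytokine-treated KO islets, against 29.8, 30.5 and 29.9 CPM untreated. It had 43, 38.5 and 45 CPM in cytokine-treated Het islets, against 35.3, 31.8 and 36.9 CPM untreated, and 41.4, 40.4 and 39.6 CPM in cytokine-treated WT islets, against 37.2, 31.5 and 37.2 CPM untreated. The groups did not overlap in any genotype, and the gap was widest in KO islets. Eif2ak2 rose by 0.44 ± 0.07 in KO and 0.28 ± 0.07 in Het islets (edgeR adjusted p = 0.000174 and 0.00746), and the change was 0.20 ± 0.07 in WT islets (adjusted p = 0.0512). Adar, which edits adenosine to inosine in double-stranded RNA, rose by 0.18 ± 0.06 in KO and 0.27 ± 0.06 in Het islets (edgeR adjusted p = 0.0298 and 0.00313). Adar levels were 85.7 ± 1.91, 90.3 ± 6.16 and 88.6 ± 5.71 CPM in cytokine-treated KO, Het and WT islets, against 75.7 ± 3.46, 75.1 ± 3.48 and 81.9 ± 2.67 CPM in untreated ones (SD, n = 3). The KO call of Adar was lost without untreated KO replicate 2 or 3 or treated KO replicate 1 or 2 (0.0066 to 0.126 over its alternatives; 0.0582 without untreated KO replicate 3). The Het call of Eif2ak2 was lost with only the compared groups in the fit (0.0654; 0.00124 to 0.0654 over its alternatives).

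Cmpk2, a mitochondrial nucleotide kinase (chr12:26469204-26479837, plus strand, GRCm38), moved the other way. It had 8.75, 8.3 and 7.22 CPM in cytokine-treated KO islets, against 13, 12.1 and 10.1 CPM untreated. It had 11.9, 7.22 and 10.2 CPM in cytokine-treated Het islets, against 13.5, 12 and 10.7 CPM untreated, and 7.19, 8.64 and 9.87 CPM in cytokine-treated WT islets, against 13.5, 10.8 and 12.8 CPM untreated. The treated and untreated libraries were separate in KO and WT islets and overlapped in Het islets. Cmpk2 fell by 0.53 ± 0.17 on the log2 scale in KO and by 0.53 ± 0.17 in WT islets (edgeR adjusted p = 0.0245 and 0.0297), and its Het change was -0.31 ± 0.17 (adjusted p = 0.21). The KO call was lost without untreated KO replicate 1 or 2 or treated KO replicate 3 (0.0092 to 0.102 over its alternatives), and the WT call without untreated WT replicate 1 or 3 or treated WT replicate 1 or 2 (0.0112 to 0.131).

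Its neighbour Rsad2, the antiviral enzyme viperin, did not pass, with changes of 0.04 ± 0.45, -0.26 ± 0.43 and -0.09 ± 0.42 in KO, Het and WT islets, and 0.14 in KO islets without untreated KO replicate 3. Ifitm3, which blocks virus entry at endosomes, was the most abundant of the genes that passed in no genotype. It had 52.2, 31.5 and 67.1 CPM in cytokine-treated KO islets, against 30, 27.8 and 72.5 CPM untreated. It had 77.6, 64.2 and 66.4 CPM in cytokine-treated Het islets, against 35.5, 69 and 110 CPM untreated, and 101, 66.2 and 64.6 CPM in cytokine-treated WT islets, against 59.1, 50.5 and 50.6 CPM untreated. The WT groups were narrowly apart, the others overlapped, and untreated Het and KO libraries were widely spread, with replicate 3 highest in each. The changes of Ifitm3 were 0.21 ± 0.42, -0.04 ± 0.42 and 0.53 ± 0.42 in KO, Het and WT islets, and 0.80 in KO islets without untreated KO replicate 3. Bst2, tetherin, holds budding virus at the cell surface. It had 13.4, 10.2 and 11.2 CPM in cytokine-treated KO islets, against 9.1, 7.1 and 15 CPM untreated, 15.3, 13.2 and 18.6 CPM in cytokine-treated Het islets, against 11.7, 15.4 and 23.8 CPM untreated, and 21.3, 13.8 and 20.1 CPM in cytokine-treated WT islets, against 20.2, 10.6 and 17.3 CPM untreated. All 3 pairs of groups overlapped, in KO islets through untreated replicate 3 alone. The changes of Bst2 were 0.16 ± 0.32, -0.11 ± 0.31 and 0.20 ± 0.31 in KO, Het and WT islets, and 0.52 in KO islets without that library.

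**Figure D2:**
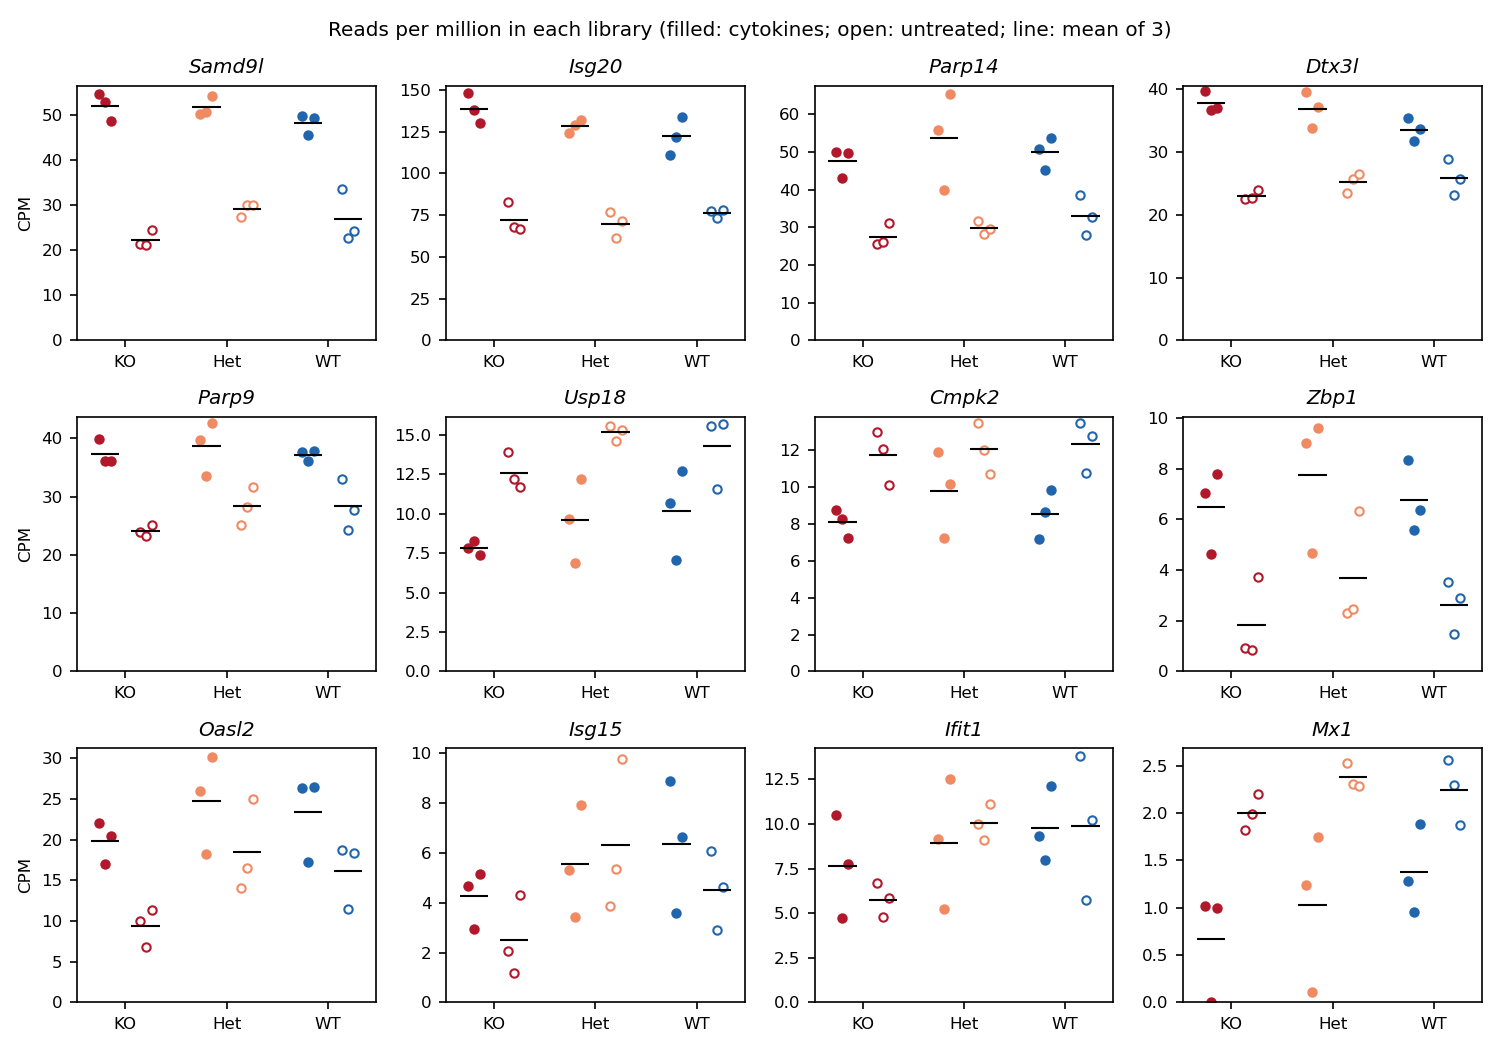
Level of 12 genes in each library (y axis, CPM, starting at 0) in KO, Het and WT islets with cytokines (filled) and untreated (open), with the mean of 3 as a line. Samd9l, Isg20, Parp14, Dtx3l and Parp9 separate by treatment in every genotype, while Isg15 and Ifit1 overlap.

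Of 4 cytosolic sensors, 3 rose in KO, 1 in Het and 0 in WT islets; in WT islets 2 of the 4 had an unadjusted p below 0.05 by edgeR, Dhx58 and Zbp1, and DESeq2 and limma voom each called Zbp1. Ddx58 encodes the RNA helicase RIG-I. It had 33.6, 30.1 and 31.8 CPM in cytokine-treated KO islets, against 27.4, 24.7 and 27.5 CPM untreated. It had 38.2, 32.8 and 41.4 CPM in cytokine-treated Het islets, against 27.5, 27.8 and 27.7 CPM untreated, and 35.6, 32.1 and 36.6 CPM in cytokine-treated WT islets, against 34.2, 26.8 and 30.9 CPM untreated. The KO and Het groups did not overlap, and the WT groups did. Ddx58 rose by 0.26 ± 0.09 in KO and 0.44 ± 0.09 in Het islets (edgeR adjusted p = 0.0396 and 0.00222), and its WT change was 0.18 ± 0.09 (adjusted p = 0.162). Its KO call was lost without untreated KO replicate 2 or 3 or treated KO replicate 1 or 3 (0.00945 to 0.146 over its alternatives; 0.0513 without untreated KO replicate 3).

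Dhx58 encodes LGP2, a regulator of RIG-I and MDA5. It had 9.06, 9.91 and 7.64 CPM in cytokine-treated KO islets, against 5.84, 3.98 and 5.61 CPM untreated. It had 8.67, 8.53 and 12 CPM in cytokine-treated Het islets, against 6.48, 6.22 and 8.52 CPM untreated, and 11.1, 7.93 and 10.6 CPM in cytokine-treated WT islets, against 8.83, 5.12 and 6.78 CPM untreated. The groups were apart in KO islets, barely apart in Het islets, and overlapped in WT islets. Dhx58 rose by 0.78 ± 0.22 in KO islets (edgeR adjusted p = 0.0112), a call lost without untreated KO replicate 2 (0.0582; 0.00251 to 0.0582 over its alternatives). Its changes in Het and WT islets were 0.46 ± 0.21 and 0.51 ± 0.21 (adjusted p = 0.13 and 0.0921).

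Zbp1, a sensor of Z-form nucleic acid that can start necroptosis, had 7.05, 4.62 and 7.79 CPM in cytokine-treated KO islets, against 0.91, 0.852 and 3.74 CPM untreated. It had 9.02, 4.67 and 9.61 CPM in cytokine-treated Het islets, against 2.32, 2.45 and 6.34 CPM untreated, and 8.35, 5.59 and 6.39 CPM in cytokine-treated WT islets, against 3.53, 1.47 and 2.9 CPM untreated. The groups were separate in KO and WT islets, and untreated KO replicate 3 and Het replicate 3 stood above the other untreated libraries of their groups. Zbp1 rose by 1.80 ± 0.55 in KO islets (edgeR adjusted p = 0.0239), and its changes were 1.07 ± 0.52 in Het and 1.35 ± 0.54 in WT islets (adjusted p = 0.165 and 0.0829). Without untreated KO replicate 3 the KO change was 2.88 (0.00146). The call was lost without untreated KO replicate 1 or 2, treated KO replicate 1 or 3, the low-count filter, or the other groups in the fit (0.00139 to 0.0928 over its alternatives). Ifih1, which encodes MDA5, stayed near its untreated level. It had 19.7, 20.1 and 15.9 CPM in cytokine-treated KO islets, against 17.6, 15.7 and 16 CPM untreated, 17.6, 17.4 and 22.4 CPM in cytokine-treated Het islets, against 20, 17 and 19.8 CPM untreated, and 21.2, 16.6 and 20.3 CPM in cytokine-treated WT islets, against 21.5, 14.7 and 18.4 CPM untreated. The groups overlapped in each genotype (0.17 ± 0.14, 0.01 ± 0.14 and 0.09 ± 0.14).

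The 2'-5' oligoadenylate synthetases make the messenger that activates the ribonuclease RNase L; Oasl1 and Oasl2 are their relatives. Of these 5 genes only Oasl2 passed, in KO islets, among the 3 genotypes tested. It had 22.1, 17 and 20.5 CPM in cytokine-treated KO islets, against 10, 6.82 and 11.3 CPM untreated. It had 26, 18.2 and 30.1 CPM in cytokine-treated Het islets, against 14, 16.5 and 25 CPM untreated, and 26.4, 17.3 and 26.5 CPM in cytokine-treated WT islets, against 18.7, 11.5 and 18.3 CPM untreated. In KO islets the groups were far apart and the untreated level was low, while Het and WT groups overlapped. Oasl2 rose by 1.08 ± 0.28 in KO islets (edgeR adjusted p = 0.00952), and its changes were 0.42 ± 0.27 in Het and 0.53 ± 0.27 in WT islets (adjusted p = 0.3 and 0.177). The changes of Oas1a, Oas2 and Oasl1 in the 3 genotypes lay between -0.05 and 0.95, and Oas3, with 0.0812 to 2.74 CPM, had changes of 0.21, -0.39 and 0.91 in KO, Het and WT islets with SE of 0.57 to 0.69. Without untreated KO replicate 3 the KO change was 1.15 for Oas3 and 0.22 for Oasl1, against 0.08 for Oasl1 with it. Reads of Oas1a may be shared with its near-identical paralogs.

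None of the 3 IFIT genes, whose products bind viral RNA with foreign 5' ends, passed by edgeR in any genotype; none had an unadjusted p below 0.05, and limma voom called Ifit3 in KO islets. Ifit1 had 10.5, 4.71 and 7.76 CPM in cytokine-treated KO islets, against 6.67, 4.79 and 5.83 CPM untreated. It had 9.14, 5.21 and 12.5 CPM in cytokine-treated Het islets, against 10, 9.12 and 11.1 CPM untreated, and 9.3, 7.97 and 12.1 CPM in cytokine-treated WT islets, against 13.8, 5.72 and 10.2 CPM untreated. The groups overlapped throughout, and replicate 2 was the lowest library in each of the 6 groups. Changes of Ifit1 were 0.42 ± 0.36, -0.17 ± 0.35 and -0.01 ± 0.35 in KO, Het and WT islets, those of Ifit2 0.24 ± 0.35 (0.48 without untreated KO replicate 3), -0.33 ± 0.34 and 0.15 ± 0.34, and those of Ifit3 0.71 ± 0.46, -0.16 ± 0.44 and 0.67 ± 0.45. Ifit3 shares sequence with Ifit3b, so its reads are less certain.

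Of 5 dynamin-like and immunity-related GTPases, only Irgm1 passed, in KO islets. Irgm1, a regulator of the immunity-related GTPases at vacuoles, had 32.8, 26.8 and 30.9 CPM in cytokine-treated KO islets, against 20.3, 17.9 and 22.1 CPM untreated. It had 34.4, 25.4 and 34.9 CPM in cytokine-treated Het islets, against 23, 24.8 and 26.9 CPM untreated, and 29.9, 25.4 and 26.2 CPM in cytokine-treated WT islets, against 25.2, 19.9 and 21.3 CPM untreated. The KO and WT groups were apart, the WT groups narrowly, and treated Het replicate 2 fell among the untreated Het libraries. Irgm1 rose by 0.58 ± 0.13 in KO islets (edgeR adjusted p = 0.00225), with 0.34 ± 0.13 in Het and 0.29 ± 0.13 in WT islets (adjusted p = 0.0583 and 0.105). Iigp1 and Igtp, vacuolar GTPases known as targets of interferon gamma, depended on single libraries. Iigp1 had 4.59, 3.32 and 4.72 CPM in cytokine-treated KO islets, against 0.379, 0 and 3.02 CPM untreated. It had 6.85, 1.06 and 6.15 CPM in cytokine-treated Het islets, against 1.09, 1.15 and 2.01 CPM untreated, and 3.18, 1.25 and 1.57 CPM in cytokine-treated WT islets, against 1.07, 0.636 and 0.807 CPM untreated. Treated libraries were higher in all genotypes except Het replicate 2, and the outlying untreated library was KO replicate 3. The change of Iigp1 was 1.84 ± 0.87 in KO islets (edgeR adjusted p = 0.127) and 4.40 without untreated KO replicate 3 (adjusted p = 0.00349), where 2 libraries at 0 and 0.379 CPM remain and the fitted size is no bound. Likewise the change of Igtp in KO islets was 0.58 ± 0.23 (adjusted p = 0.0694) and 0.81 without that library (0.0227), and its Het change 0.49 ± 0.23 (adjusted p = 0.148) and 0.75 without treated Het replicate 2 (0.00798). Iigp1 and Igtp were singled out after their values were seen. Igtp overlaps Irgm2 on the same strand.

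Mx1, which encodes a dynamin-like restriction factor of influenza viruses and is defective in many inbred mouse strains, was low. It had 1.02, 0 and 0.998 CPM in cytokine-treated KO islets, against 1.82, 1.99 and 2.2 CPM untreated. It had 1.24, 0.109 and 1.75 CPM in cytokine-treated Het islets, against 2.53, 2.31 and 2.29 CPM untreated, and 1.28, 0.959 and 1.88 CPM in cytokine-treated WT islets, against 2.56, 2.3 and 1.87 CPM untreated. Treated libraries were lower than untreated ones in KO and Het islets, with replicate 2 at 0 and 3 reads, and overlapped by a hair in WT islets. The changes were -1.52 ± 0.70, -1.20 ± 0.66 and -0.70 ± 0.65 in KO, Het and WT islets (edgeR adjusted p = 0.114, 0.217 and 0.47). Mx2, which the GENCODE annotation lists as a polymorphic pseudogene, had changes of -0.26 ± 0.36 (-0.15 without untreated KO replicate 3), -0.74 ± 0.35 and -0.42 ± 0.35 in KO, Het and WT islets, none of which passed. Mx1 was singled out after its values were seen.

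Of 5 genes grouped under the ISG15 and ubiquitin systems, none rose, and 2 fell in KO islets and 1 in Het islets. The ubiquitin ligase gene Dtx3l, which rose in every genotype, was counted with ADP-ribosylation instead. Usp18 removes ISG15 from proteins and also restrains the type I interferon receptor (chr6:121245906-121270917, plus strand, GRCm38). It had 7.8, 8.25 and 7.41 CPM in cytokine-treated KO islets, against 13.9, 12.2 and 11.7 CPM untreated. It had 9.64, 6.89 and 12.2 CPM in cytokine-treated Het islets, against 15.6, 14.6 and 15.3 CPM untreated, and 10.7, 7.09 and 12.7 CPM in cytokine-treated WT islets, against 15.6, 11.6 and 15.7 CPM untreated. KO and Het groups were separate, and treated WT replicate 3 overlapped untreated WT replicate 2. Usp18 fell by 0.69 ± 0.20 in KO and by 0.67 ± 0.20 in Het islets (edgeR adjusted p = 0.0169 and 0.0227), with -0.49 ± 0.20 in WT islets (adjusted p = 0.0864). The KO call was lost without untreated KO replicate 1 or treated KO replicate 1 or 3 (0.00298 to 0.0682 over its alternatives). The Het call was lost without untreated Het replicate 1, treated Het replicate 1 or 2, the low-count filter, or the other groups in the fit (0.0032 to 0.1).

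Trim25, the ubiquitin ligase known to act on RIG-I, had 63.8, 65.7 and 66.5 CPM in cytokine-treated KO islets, against 76.3, 72.3 and 71.2 CPM untreated. It had 74.6, 69.7 and 71.6 CPM in cytokine-treated Het islets, against 73.2, 74.4 and 69 CPM untreated, and 73.1, 72 and 75.3 CPM in cytokine-treated WT islets, against 73.5, 67.7 and 76.9 CPM untreated. Only the treated KO libraries stood below the others, by a small margin. Trim25 fell by 0.16 ± 0.05 in KO islets (edgeR adjusted p = 0.0186), a call lost without untreated or treated KO replicate 1, the low-count filter, or the other groups in the fit (0.00557 to 0.126 over its alternatives). Isg15 had 4.66, 2.96 and 5.14 CPM in cytokine-treated KO islets, against 2.05, 1.18 and 4.29 CPM untreated. It had 5.3, 3.43 and 7.93 CPM in cytokine-treated Het islets, against 3.86, 5.35 and 9.77 CPM untreated, and 8.88, 3.59 and 6.62 CPM in cytokine-treated WT islets, against 6.06, 2.9 and 4.62 CPM untreated. The groups overlapped in each genotype, and the distance from lowest to highest library within each group exceeded the difference of the means. Its changes were 0.75 ± 0.51, -0.19 ± 0.48 and 0.49 ± 0.48 in KO, Het and WT islets, and 1.40 in KO islets without untreated KO replicate 3 (adjusted p = 0.29 with it and 0.075 without it). Trim21, an antibody receptor in the cytosol, and Herc6, a ligase for ISG15 in mice, had changes between 0.02 and 0.24 that did not pass, with 0.07 for Trim21 in KO islets and 0.15 without untreated KO replicate 3.

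Of 4 other interferon-inducible genes, Ifi35 rose in KO and Het islets, by 0.39 ± 0.10 and 0.29 ± 0.10 (edgeR adjusted p = 0.00701 and 0.0463), with 0.27 ± 0.10 in WT islets (adjusted p = 0.0592). Its levels were 22.2 ± 2.89, 22.6 ± 1.93 and 21.4 ± 2.08 CPM in cytokine-treated KO, Het and WT islets, against 16.9 ± 0.381, 18.5 ± 1.34 and 17.7 ± 1.63 CPM untreated (SD, n = 3). The Het call was lost in 12 of 25 alternatives (0.02 to 0.195): with only the groups compared, and without treated Het replicate 1, 2 or 3, untreated Het replicate 1 or 2, treated KO replicate 2, untreated KO replicate 2 or 3, treated WT replicate 3, or untreated WT replicate 1 or 2. Rtp4, Xaf1 and Ifi44 did not pass, with KO changes of 0.83 ± 0.31, 0.84 ± 0.35 and 0.66 ± 0.64 (edgeR adjusted p = 0.057, 0.0788 and 0.476). Without untreated KO replicate 3 the KO change of Ifi44 was 1.58 (adjusted p = 0.133). Cd274, the checkpoint ligand PD-L1, had 20.2, 19.9 and 19.3 CPM in cytokine-treated KO islets, against 21.5, 22.1 and 28.3 CPM untreated. It had 19.7, 18.1 and 22.1 CPM in cytokine-treated Het islets, against 20.6, 19.3 and 20.2 CPM untreated, and 22, 17.6 and 22.3 CPM in cytokine-treated WT islets, against 21.8, 20 and 19.1 CPM untreated. The highest value was again untreated KO replicate 3, and the changes were -0.28 ± 0.11, 0.00 ± 0.11 and 0.02 ± 0.11 (edgeR adjusted p = 0.0617 in KO islets). Without that library the KO change of Cd274 was -0.14 (adjusted p = 0.327). Ido1, a tryptophan-degrading enzyme, had 0 to 2 reads per library.

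Leaving out a library was not the only way to further calls. With all libraries kept, some gene values that did not pass in the main fit passed by another method. Of 139 values followed over all comparisons, these were 10 by DESeq2 and 17 by limma voom. Zbp1 in WT islets was among both. Some genes that did not pass in the main fit passed when 1 library was left out. In WT islets these were Eif2ak2 in 7 such fits (0.20 to 0.24, edgeR adjusted p 0.0375 to 0.0495: without untreated KO replicate 1, treated Het replicate 2 or 3, untreated Het replicate 2 or 3, or untreated WT replicate 1 or 3), Ifi35 without treated KO replicate 1 or 3 or untreated WT replicate 3, Usp18 without treated Het replicate 2 or treated WT replicate 3, Dhx58 and Oas2 (1.45) without untreated WT replicate 1, Zbp1 without untreated KO replicate 3, and Adar (0.18) without treated WT replicate 2. In Het islets they were Igtp, Irgm1 (0.48 without treated Het replicate 2, and 0.34 without untreated WT replicate 1), Zbp1 (1.70 without untreated Het replicate 3) and Mx2 (-1.20 without treated Het replicate 3). In KO islets they were Iigp1, Igtp (also without treated Het replicate 2), Mx1 (without treated Het replicate 2), Cd274 (-0.33 without untreated KO replicate 1) and Rtp4 (0.83 to 0.99, without treated KO replicate 2, treated WT replicate 2, or untreated WT replicate 1 or 2). Treated Het replicate 2 recurs here, and it is the library lowest for most of the genes.

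Levels per kilobase of annotated exon set the genes in order. In cytokine-treated KO islets Isg20 and Ifitm3 stood at 74.6 ± 4.85 and 74.1 ± 26.4 CPM per kb, a pair that did not differ beyond their spread, followed by Ifi35, Bst2, Trim25 and Adar at 10.6 to 12.9 CPM per kb. In untreated WT islets Ifitm3 stood at 78.8 ± 7.28 and Isg20 at 40.9 ± 1.44 CPM per kb (SD, n = 3). Apart from Ido1, Oas3 was lowest, at 0.0791 ± 0.0407 CPM per kb in cytokine-treated KO islets and 0.111 ± 0.0489 in untreated WT islets.

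The pathway above these genes was read from a list of 41 upstream genes, 29 of them tested. Of 29, 13 rose and 2 fell in KO islets, 13 rose in Het islets and 14 rose in WT islets, with median changes of 0.30, 0.25 and 0.34. No interferon ligand was tested: of 11 ligand genes, 9 had 0 reads in every library, Ifnb1 reached 3 and Ifne 1, and 0 reads allow up to 3 reads per library, or 0.13 CPM at the lowest total. This covers counting error only. Of 9 receptor and kinase genes, Ifngr2, Ifnar2, Il10rb and Jak1 rose in all 3 genotypes. Ifngr2, a chain of the interferon gamma receptor, averaged 74.1 ± 2.17, 77.5 ± 4.36 and 81.8 ± 4.64 CPM in cytokine-treated KO, Het and WT islets, against 25.9 ± 2.63, 33 ± 5.38 and 34 ± 2.89 CPM untreated (1.52 ± 0.10, 1.23 ± 0.10 and 1.27 ± 0.10; edgeR adjusted p = 2.18e-08, 2.38e-07 and 2.55e-07). Ifnar2, a chain of the type I receptor, rose by 0.61 ± 0.06, 0.62 ± 0.06 and 0.49 ± 0.06.

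Inhibitors rose most, 3 of 4 in each genotype, with median changes of 1.44, 1.22 and 1.08 in KO, Het and WT islets. Socs1, which blocks JAK kinases, averaged 14.5 ± 2.82, 14.8 ± 1.19 and 14 ± 1.07 CPM in cytokine-treated KO, Het and WT islets, against 3.69 ± 2.14, 3.41 ± 1.48 and 2.5 ± 0.571 CPM untreated (1.96 ± 0.34, 2.12 ± 0.34 and 2.48 ± 0.36; edgeR adjusted p = 0.000478, 0.000365 and 0.00013). Socs3 rose by 1.54 ± 0.16, 1.37 ± 0.16 and 1.26 ± 0.16, and the phosphatase gene Ptpn2 by 1.33 ± 0.08, 1.06 ± 0.08 and 0.90 ± 0.08. Of 9 transcription factors, Irf1 rose by 0.83 ± 0.09, 0.84 ± 0.09 and 0.63 ± 0.09 and Irf2 by 0.39 ± 0.07, 0.44 ± 0.07 and 0.34 ± 0.07. Stat2 rose in KO islets (0.54 ± 0.17, edgeR adjusted p = 0.0222). Irf9, a factor that binds the ISRE, and Irf7 did not pass in any genotype; Stat2, Irf9 and Irf7 were named after their values were seen. Among sensor adaptors the kinases Ikbke and Tbk1 rose in all genotypes, Ikbke by 1.64 ± 0.10, 1.84 ± 0.10 and 1.45 ± 0.10, and the 2 genes that fell in KO islets were Mavs (-0.22 ± 0.07) and Tyk2 (-0.30 ± 0.07).

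Of 63 other interferon-stimulated genes, 57 were tested, and 15 rose and 2 fell in KO islets, 14 rose in Het islets and 12 rose in WT islets, with medians of 0.35, 0.17 and 0.38. Those that rose in all genotypes were 9: Ifitm2, Lgals3bp, Helz2, Apobec3, Uba7, Ube2l6, Parp12, Shisa5 and Mlkl. Ifitm2, a relative of Ifitm3, averaged 58.1 ± 2.05, 48.5 ± 3.02 and 51.4 ± 2.85 CPM in cytokine-treated KO, Het and WT islets, against 17.3 ± 3.2, 19.8 ± 5.05 and 18.7 ± 1.52 CPM untreated, and rose by 1.74 ± 0.15, 1.29 ± 0.15 and 1.46 ± 0.15 (edgeR adjusted p = 5.73e-07, 1.44e-05 and 5.89e-06). It and Ifitm3 share sequence, so reads may be split between them. Lgals3bp, a secreted glycoprotein gene, averaged 1480 ± 138, 1450 ± 127 and 1250 ± 89.3 CPM in cytokine-treated KO, Het and WT islets, against 865 ± 80.4, 872 ± 76.2 and 905 ± 61.2 CPM untreated.

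Cell type markers moved with treatment as well. The 15 macrophage markers summed to 267 to 338, 337 to 440 and 345 to 597 CPM in cytokine-treated KO, Het and WT islets. Untreated islets of these genotypes held 182 to 484, 159 to 353 and 198 to 235 CPM. By the test 1, 0 and 1 of 15 rose, and the median log2 changes were -0.57, -0.15 and 0.31. A median counts each marker alike, while a sum follows the abundant ones. Of 8 mesenchymal markers 0, 6 and 2 fell, and of 9 beta cell markers 5 fell in each genotype and 1 rose in KO islets. The 7 duct markers summed to 3290 to 4270, 3810 to 4980 and 4030 to 7140 CPM in cytokine-treated KO, Het and WT islets, against 1520 to 2100, 1870 to 5230 and 2070 to 3140 CPM untreated. The duct sums did not overlap in KO and WT islets, and 3, 0 and 3 of 7 markers rose. Median log2 changes of the duct markers were 0.18, 0.04 and 0.51 in KO, Het and WT islets. The 5 alpha cell markers summed to 8510 to 12800, 8790 to 9850 and 7100 to 9610 CPM in cytokine-treated KO, Het and WT islets. Untreated islets held 14000 to 19100, 12600 to 18800 and 10900 to 15200 CPM, without overlap. In each genotype 2 of 5 fell, with median log2 changes of -0.30, -0.03 and -0.21 in KO, Het and WT islets. In bulk islets fewer cells of a type and less RNA per cell cannot be told apart, and the part of these shifts in the results above was not tested.

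Within groups the 38 genes deviated together. Treated Het replicate 2 was the lowest of its 3 libraries for 36 of 38 genes, against 36.3% of all genes tested, and treated Het replicate 3 the highest for 31. Untreated WT replicate 2 was lowest for 34 and replicate 1 highest for 31, against 32% and 32.4% of all genes. Replicate 2 was also lowest for 25 genes in treated KO, 28 in untreated KO and 29 in treated WT islets, and in untreated Het islets replicate 1 was lowest for 21 and replicate 3 highest for 25. The median ratio to the group mean was 0.764 in treated Het replicate 2, 0.813 in untreated WT replicate 2 and 1.18 in treated Het replicate 3. The 38 genes are therefore not independent readings of a condition, and a count over them is 1 pattern in 3 libraries against 3.

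**Figure D3:**
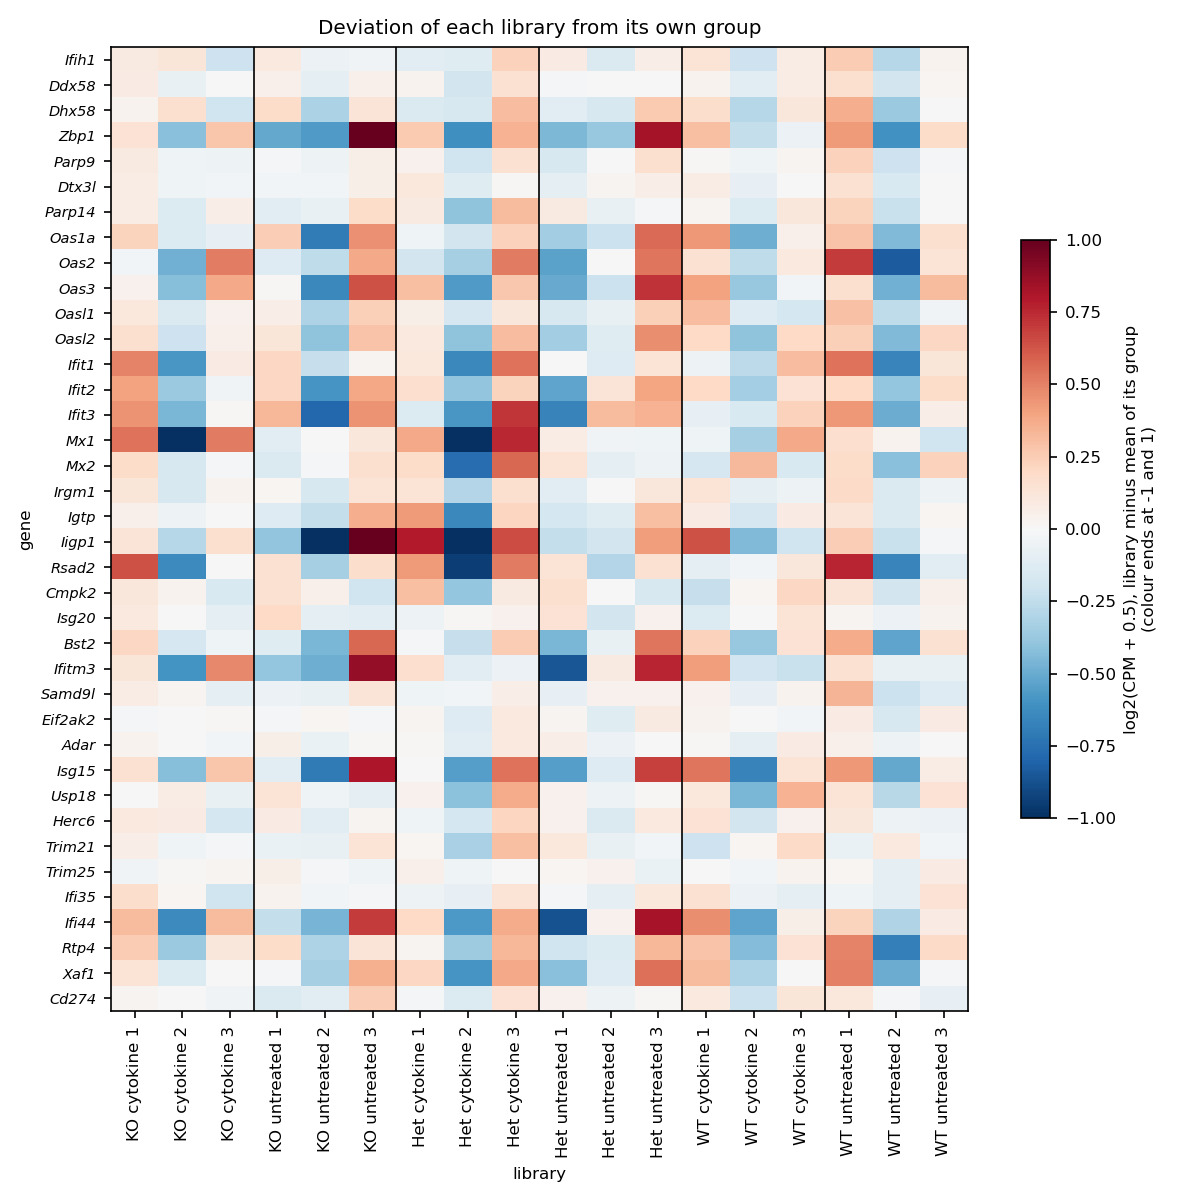
Each cell is log2(CPM + 0.5) of a gene (rows) in a library (columns) minus the mean of that library's own group of 3, from blue (lower) to red (higher), with colour ending at -1 and 1. Replicate 2 is mostly blue in 5 of 6 groups, as in treated Het islets, where it is lowest for 36 of 38 genes.

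The next comparisons asked whether loss of ZnT8 changed the genes. In untreated islets no gene of the 38 passed between KO and WT by edgeR, where 2.94% of all genes did. An unadjusted p below 0.05 was reached by 13 of the 38, 12 of them lower in KO islets, and by 18.3% of all genes; DESeq2 called 2, limma voom 1. The estimates were below 0 for 33 of 38, with a median of -0.25, against 0.00 for all genes. The smallest p were those of Oasl1, Eif2ak2 and Rsad2. Oasl1, a translation regulator of Irf7 in mice, had 3.83, 2.84 and 4.36 CPM in untreated KO islets, against 7.48, 4.97 and 5.87 CPM in untreated WT islets (-0.73 ± 0.20, edgeR adjusted p = 0.0583). Rsad2 had 3.83, 2.6 and 3.9 CPM in KO islets, against 13.5, 4.73 and 7.19 CPM in WT islets (-1.30 ± 0.44, adjusted p = 0.136). Neither overlapped, nor did Eif2ak2 in the libraries given above (-0.23 ± 0.07, adjusted p = 0.091). Without untreated WT replicate 2 Eif2ak2 passed (-0.31, 0.0355), and Oasl1 passed without treated WT replicate 1 or untreated Het replicate 1 or 3 (0.0407 to 0.0499).

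Untreated KO and Het islets were compared next, which uses the same KO libraries again. None of the 38 passed by edgeR, and 0% of all genes did; 16 of 38 had an unadjusted p below 0.05, 15 of them lower in KO islets, against 14.6% of all genes, and DESeq2 called 2 and limma voom 6. Of 38 estimates 34 were below 0, with a median of -0.34, against 0.01 for all genes. Without untreated Het replicate 1, which had the lowest quality weight of the 18 libraries (0.231), 5 genes passed, all lower in KO islets. How many of all genes passed was not computed for this fit, for DESeq2, for limma voom or for other left-out libraries. Those counts therefore have no background beside them and are not read as a trait of these genes. Rtp4, a Golgi chaperone gene, had 5.46, 3.73 and 5.24 CPM in untreated KO islets, against 8.77, 9.16 and 12.9 CPM in untreated Het islets. The groups were apart (-1.09 ± 0.31, adjusted p = 0.181 by edgeR). Oasl2 and Samd9l came next, at -0.98 ± 0.28 and -0.38 ± 0.11 (adjusted p = 0.183 and 0.182), and their untreated KO and Het libraries, given above, did not overlap. Untreated KO replicate 3 stood among the higher libraries for most genes, and without it no gene passed in either comparison, and 16 and 19 of 38 had an unadjusted p below 0.05 against WT and Het islets.

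Untreated Het and WT islets differed in none of the 38 by edgeR, where 0.00569% of all genes passed; 1 gene had an unadjusted p below 0.05, and DESeq2 and limma voom called 0. That gene was Adar, at -0.12 ± 0.06 (edgeR adjusted p = 0.716). Next were Oas3 (1.01 ± 0.59) and Ddx58 (-0.15 ± 0.09), whose groups overlapped. Estimates were above 0 for 27 of 38, with a median of 0.06, against 0.00 for all genes.

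With cytokines, KO islets held less Oasl1 than WT islets did, at 4.2, 3.45 and 3.99 CPM in KO islets, against 8.02, 5.76 and 5.56 CPM in WT islets (-0.73 ± 0.20, edgeR adjusted p = 0.0438). The groups did not overlap, and the difference was as large as in untreated islets. It was the 1 gene of 38 that passed, where 5.33% of all genes did; 6 of 38 had an unadjusted p below 0.05, against 24% of all genes, and DESeq2 called 1 and limma voom 6. The call was lost in 12 of 25 alternatives (adjusted p 0.0172 to 0.195): with only the groups compared, and without any 1 of the treated KO or treated WT libraries, treated Het replicate 1 or 3, untreated KO replicate 1, untreated Het replicate 2 or untreated WT replicate 3. Without untreated Het replicate 1 or untreated WT replicate 2 the count was 2. Trim25 (-0.17 ± 0.05), Oas2 (-1.28 ± 0.46) and Rsad2 (-1.16 ± 0.44) followed, with adjusted p of 0.059, 0.11 and 0.131. The median of the 38 was -0.14, against 0.00 for all genes.

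Treated KO and Het islets differed in none of the 38 by edgeR, where 0.00569% of all genes passed; 2 genes had an unadjusted p below 0.05, Trim25 (-0.14 ± 0.05) and Ddx58 (-0.23 ± 0.09), with adjusted p of 0.484 and 0.514, followed by Oasl1 (-0.41 ± 0.20, 0.605). Treated Het and WT islets differed in none either, where 0% of all genes passed, and 0 of 38 had an unadjusted p below 0.05; the smallest p were those of Igtp (0.47 ± 0.23), Dtx3l (0.13 ± 0.08) and Irgm1 (0.22 ± 0.13), with adjusted p of 0.725 to 0.733. DESeq2 and limma voom called 0 in both comparisons. The medians of the 38 were -0.15 for KO over Het and -0.02 for Het over WT islets.

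**Figure D4:**
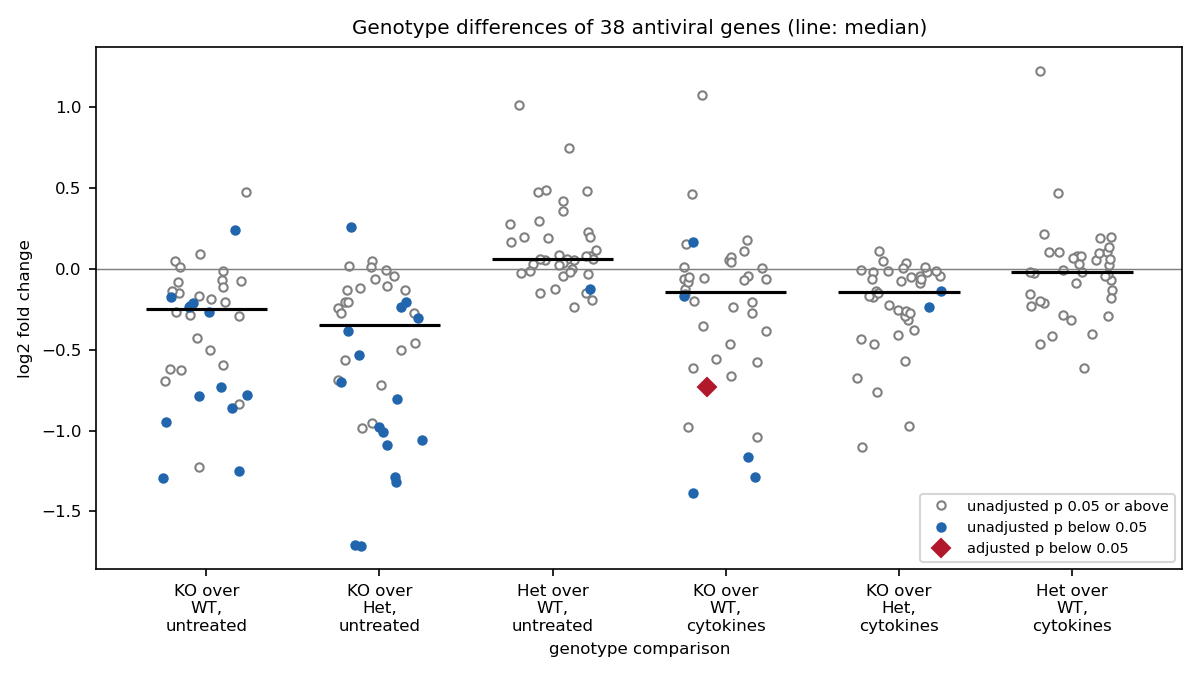
Log2 fold change of 38 genes (points, y axis) in 6 genotype comparisons (x axis), untreated and with cytokines, with the median as a line. Filled circles had an unadjusted p below 0.05, and the diamond, Oasl1 in treated KO over WT islets, passed after adjustment; the comparisons share libraries, so the same KO libraries enter 2 columns of each treatment.

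Markers of other cells moved with genotype too. The 20 acinar markers, genes of the exocrine pancreas, summed to 1790 to 2790 CPM in untreated KO, 3250 to 4920 in untreated Het and 9450 to 9490 in untreated WT islets, and to 877 to 2030, 3150 to 4910 and 6320 to 12100 CPM with cytokines. All 20 were lower in KO than in WT islets in each treatment. The 8 endothelial markers summed to 212 to 325, 342 to 433 and 398 to 529 CPM in untreated KO, Het and WT islets, with 2 of 8 lower in KO than in WT islets, and 4 of 8 with cytokines. Of 15 macrophage markers 0 passed in any genotype comparison, and no marker of these 3 types was at 0 in all libraries. The part of these markers in the genotype differences was not tested.

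Whether the cytokine response itself depended on genotype was tested by interaction terms. None of the 38 genes passed for KO against WT, where 0.0114% of all genes did, none for Het against WT, where 0% did, and none for KO against Het, where 0% did. By edgeR 4, 0 and 2 genes had an unadjusted p below 0.05, and DESeq2 and limma voom called 0 in each. For KO against WT these were Dtx3l (0.34 ± 0.11), Trim25 (-0.18 ± 0.07), Eif2ak2 (0.24 ± 0.10) and Samd9l (0.38 ± 0.16), with edgeR adjusted p of 0.48, 0.645, 0.664 and 0.664. For KO against Het they were Samd9l (0.39 ± 0.16) and Trim25 (-0.16 ± 0.07), with adjusted p of 0.839 each, followed by Xaf1 (0.99 ± 0.48). For Het against WT the smallest p were those of Ddx58 (0.25 ± 0.13), Adar (0.15 ± 0.08) and Dtx3l (0.17 ± 0.11), with adjusted p of 0.881 each. The number of calls per genotype is not itself a test of a response that differs between genotypes.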

How the data were processed

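RNA of islets was sequenced on an Illumina NovaSeq instrument. The submitters' processing notes name, without roles, build GRCm38 and the tools STAR 2.5.2a, featureCounts 1.6.2, DESeq2 1.30.0, cutadapt 1.16 and FastQC 0.11.7. As files, the authors deposited whole-number counts per gene for 55536 genes and 18 libraries, with totals of 22990164 to 29946680, and a filtered table of 25253 genes that served only as an alternative gene set. No source used here gives the strand setting of the counting, and 14 of the 39 genes overlap another gene.

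The 39 genes and all lists were chosen with earlier results of these data known. Genes were kept by edgeR's filterByExpr (count minimum 10), which left 17590, with TMM scaling. All 18 libraries entered a quasi-likelihood fit of 6 group means (12 residual degrees of freedom, median biological coefficient of variation 0.106), run in R 4.3.3 and edgeR 4.0.16, and 12 comparisons were tested with Benjamini-Hochberg adjustment over all genes. Alternatives used limma 3.58.1, DESeq2 1.42.0, RLE size factors, no filter, the authors' filtered gene set, only the groups compared, replicate numbers as a block, and each library left out. Replicate numbers come from the labels. Positions and exon lengths came from GENCODE M21 (GRCm38), where all 39 IDs were found. Figures used Python 3.11.15 and matplotlib 3.10.9.

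By the rule for named genes, libraries are given for up to 10 genes that rose in every genotype, genes that fell, up to 8 that passed in 1 or 2 genotypes by range of change, up to 4 that passed in none by level, and those passing, or the 3 of smallest p, in each other comparison. Upstream genes are named where they rose in all genotypes, up to 4 per role. Genes outside this rule were named after their values were seen. The values of 1 upstream gene are not reported here.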

Additional observations from a re-analysis of the deposited data

How the results depend on the processing

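No result changed direction while passing the test. Counts of genes called in WT islets with cytokines were 6, and 11 with only the groups compared, 11 by limma voom with quality weights and 14 with the replicate block. With cytokines, the 16 genes in KO islets were 19 by DESeq2, 23 by limma voom, 22 with the block and 14 with no low-count filter, and the 10 in Het islets were 11, 12, 14 and 9, and 7 with only the groups compared. For untreated KO against WT islets 0 became 2 by DESeq2, 1 by limma voom and 4 with the block. For untreated KO against Het islets 0 became 2 by DESeq2 and 6 by limma voom, and for treated KO against WT islets 1 became 0 with only the groups compared, 6 by limma voom and 3 with the block. Leaving out 1 library gave 11 to 18 genes in KO, 8 to 11 in Het and 4 to 8 in WT islets with cytokines, 0 to 1 for untreated KO against WT (1 without untreated WT replicate 2, treated WT replicate 1, or untreated Het replicate 1 or 3), 0 to 5 for untreated KO against Het (5 without untreated Het replicate 1) and 0 to 2 for treated KO against WT islets. Other comparisons stayed at 0 in all alternatives. The cause of these shifts was not tested, and the share of all genes that passed was computed for the main fit only. Estimates that did not pass turned sign in 71 of 2502 values over the left-out libraries, in 6 of 139 each by limma voom and the block, and in 3 of 139 each by DESeq2, RLE, no filter and only the groups compared. Same-numbered treated and untreated libraries correlated at -0.219 to 0.392 in their deviations, 6 of 9 above 0.1, against 3 of 18 for different numbers. Not every pair passed 0.1 in any genotype, nor did every library correlate best with its own number, and the labels tie no number to an animal, so the numbers were not taken as pairs and the block is an alternative only. Depth limits genes such as Mx1, Oas3 and Ifi44, which had few reads and wide errors.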
